A study of Sus scrofa domesticus with 4 samples.

Results

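The genes described here are DDIT4, HIF1A, PDK1, LDHA, LDHB, PGK1 and GAPDH, measured in cultured pig endometrium, the lining of the uterus, with or without orexin B. They were taken as a stress-induced inhibitor of mTOR, the oxygen-regulated transcription factor and the glycolytic enzymes with their gatekeeper kinase, by matching the RefSeq transcript of every probe to 8 listed gene symbols. Probes were found for 7 of the 8 symbols, out of 3029 genes that the array names in this way, and ENO1 had none. These 7 genes have 29 probes, of which 28 were bright enough to test.

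Explants came from the uterine horns of 4 mature gilts (Large White x Polish Landrace, 7-8 months old) on days 15 to 16 of gestation, and all were cut, washed and preincubated for 2 h. They were then cultured for another 24 h, either with orexin B at 10 nM, a neuropeptide of the hypothalamus also known as hypocretin 2 (treated), or without it (untreated), all at 37°C under 95% O2 and 5% CO2. Each of 4 arrays carried treated RNA in one fluorescent dye and untreated RNA in the other, and the dyes were swapped: Cy5 marked the treated RNA on arrays 1 and 3, whereas Cy3 marked it on arrays 2 and 4. The labels give duplicate cultures in 4 experiments but tie no animal to an array, so p-values rest on arrays and not on animals. Those of the moderated test combine each probe's spread between the arrays with a variance shared by all tested probes. No group was kept at low oxygen, per the labels, and untreated explants had been cultured like the treated ones.

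Oxygen shortage stabilises the protein of HIF1A, which pairs with ARNT and switches on genes for glucose uptake, glycolysis and lactate formation. The same factor induces PDK1, a kinase that keeps pyruvate out of the mitochondrion, and DDIT4 (also called REDD1), which acts through the TSC complex to restrain mTORC1, the growth kinase complex. DDIT4 is also induced by glucocorticoids, energy shortage and endoplasmic reticulum stress. HIF1A is regulated mostly through protein breakdown, so its mRNA need not follow its activity.

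Markers of epithelium were well detected, with a summed level between 15.64 and 16.60 log2 intensity in treated RNA and between 15.95 and 17.06 in untreated RNA, over 5 tested markers of 10. Stroma (3 tested of 9), endothelium (4 of 8) and smooth muscle (3 of 6) were measured on every array. All 5 epithelial markers on the array were tested. No B or plasma cell marker was tested, although 3 of 5 were on the array. In Cy5, 82.4% to 86.7% of the 43803 spots were above background on arrays 1, 3 and 4, against 46.8% on array 2, which came from a separate scan. In Cy3 the share was 27.8% to 36.2%. The number of arrays limits the precision of every value below.

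None of the 28 probes passed the test for treatment, limma's moderated test with Benjamini-Hochberg adjustment over 13781 probes at 0.05. Over all those probes the share called was 0%, with a smallest adjusted p of 0.999, so the ratios below are given with their errors and intervals. The ratio of treated over untreated RNA, given as log2 throughout, was below 0 for 16 of the 28 probes and above 0 for 12, with a median of -0.10, beside a median of 0.02 over all tested probes. An unadjusted p under 0.05 was found for 4 of the 28 probes, 3 of DDIT4 and 1 of PDK1, against 3.6% of all tested probes. The same number, 3 of DDIT4 and 1 of PDK1, had a ratio below 0 on 4 of 4 arrays, against 3.61% of all tested probes. The PDK1 probe, in both counts, and DDIT4 probe A_72_P538933, in the second, were bright enough to test only through untreated RNA. Such an entry favours a ratio below 0. DDIT4 was known from earlier results of these data when the genes were listed, so these shares describe the genes and support nothing.

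**Figure D1:**
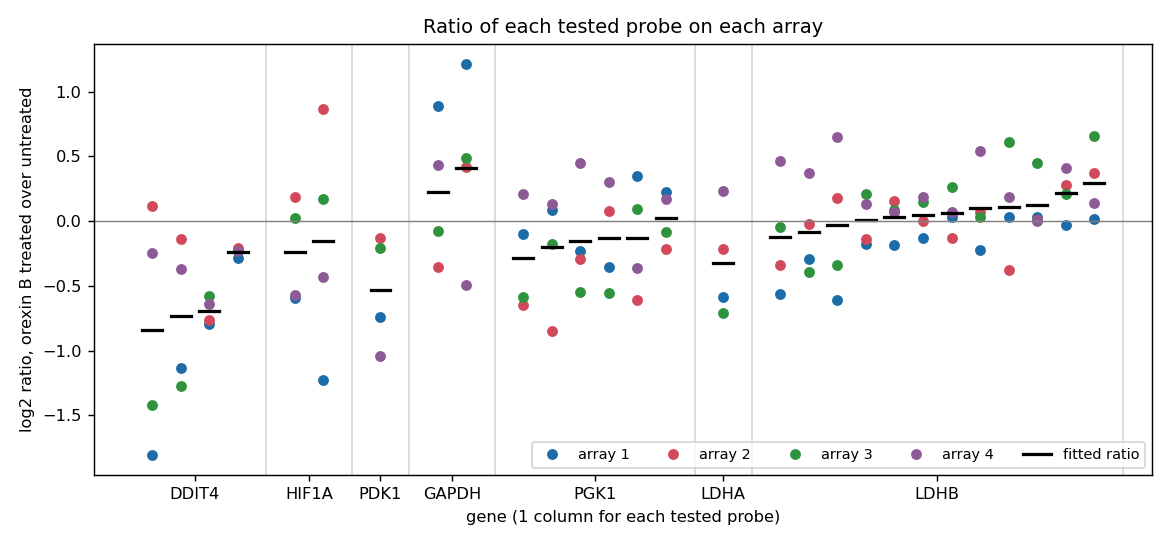
Log2 ratio of orexin B treated over untreated RNA (vertical axis) for each of the 28 tested probes, in columns grouped by gene, with a point for each array and a black bar for the fitted ratio. The DDIT4 columns and the PDK1 column lie almost wholly below 0, while the 12 LDHB columns straddle 0, with fitted ratios from -0.12 to 0.30.

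With the processing used here DDIT4, the inhibitor of mTORC1, had the lowest ratio among the 7 genes. Its brightest probe, A_72_P230427, which stands for the gene in comparisons, had treated levels of 14.40, 13.95, 15.22 and 13.73 log2 intensity on arrays 1 to 4, against untreated levels of 15.54, 14.09, 16.50 and 14.09. The treated level was the lower one on every array, but the 2 groups overlapped because arrays 1 and 3 were high in both RNAs. The ratios were -1.14, -0.14, -1.28 and -0.37. The fitted ratio was -0.73 ± 0.17 (moderated SE, n = 4 arrays; 95% interval -1.14 to -0.32), a treated level of 0.603 of the untreated one (limma adjusted p = 0.999). It stood 39th of 13781 probes by p. PDK1 was lower than DDIT4 with the scanner's processed signals (-1.16 against -0.83) and in the authors' value table (-1.03 against -0.70).

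The other DDIT4 probes measured the same transcript and did not all give the same picture. Probe A_72_P577733 had treated levels of 13.41, 13.74, 14.65 and 13.59, against untreated levels of 15.22, 13.62, 16.07 and 13.84. Its ratios were -1.81, 0.12, -1.42 and -0.25, so that arrays 1 and 3 carried nearly all of its fitted ratio of -0.84 ± 0.18. Array 2 was the only one of the 4 on which this probe was higher in treated RNA.

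Probe A_72_P489452 was even across arrays. It had treated levels of 12.27, 11.41, 13.46 and 11.32, against untreated levels of 13.06, 12.18, 14.04 and 11.96, and its ratios of -0.79, -0.76, -0.58 and -0.64 had an SD of 0.101. Its fitted ratio was -0.69 ± 0.17 (95% interval -1.10 to -0.29), close to that of the brightest probe, whose ratios had an SD of 0.561. Probe A_72_P538933 was as even but nearer 0, with ratios of -0.28, -0.21, -0.23 and -0.23 and a fitted ratio of -0.24 ± 0.17 (95% interval -0.64 to 0.16). The ratios of A_72_P538933 had an SD of 0.0317, so its SE and interval came mostly from the variance shared by all tested probes. Its treated signal was not well above background on array 4.

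**Figure D2:**
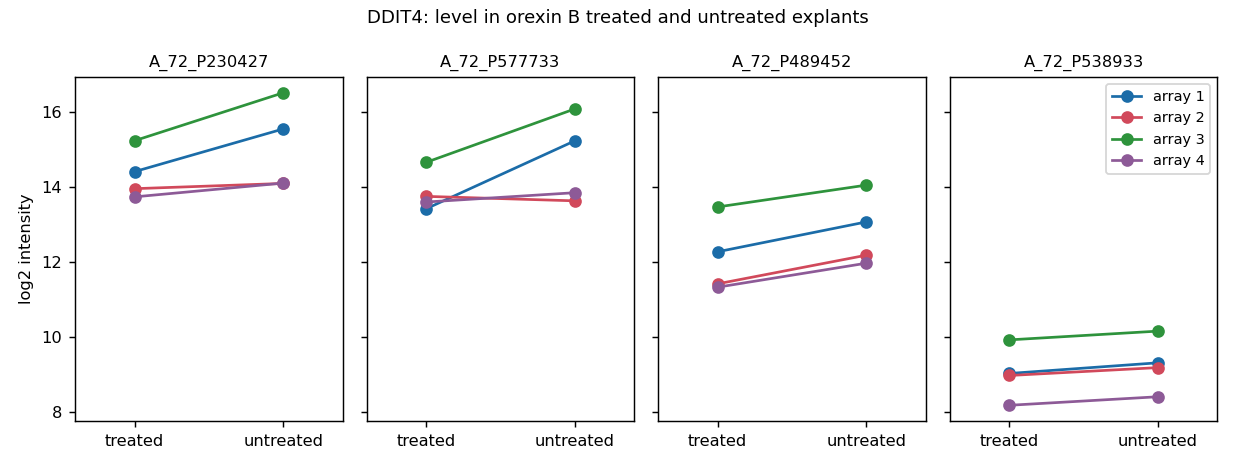
Log2 intensity of the 4 DDIT4 probes, 1 panel each, in treated (left) and untreated (right) explants, with a line for each array. Lines run nearly parallel for A_72_P489452 and A_72_P538933, while for A_72_P230427 and A_72_P577733 the lines of arrays 1 and 3 are steep and those of arrays 2 and 4 nearly flat.

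The uneven probes divided by dye orientation. On arrays 1 and 3, with treated RNA in Cy5, A_72_P230427 averaged -1.21 and A_72_P577733 averaged -1.62. On arrays 2 and 4, with treated RNA in Cy3, they averaged -0.25 and -0.06. The dye term, which estimates Cy5 over Cy3 whatever the treatment, was -0.48 ± 0.17 for A_72_P230427 and -0.78 ± 0.18 for A_72_P577733. For A_72_P489452 the averages were -0.69 and -0.70, and for A_72_P538933 they were -0.26 and -0.22, with dye terms of 0.01 and -0.02. Over all tested probes, 14.2% had a dye term with an unadjusted p under 0.05. The dye term was larger in size than the treatment ratio for 15 of the 28 probes.

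These values rest on the dye labels of each array. The labelling text common to all samples can be read as treated RNA in Cy5 on every array, and the ratio then equals the dye term. Under that reading DDIT4 had -0.48 at its brightest probe, and the 2 even probes had 0.01 and -0.02, with array values on both sides of 0. The authors' value table, however, follows the dye labels of each array. Relative to all tested probes it put DDIT4 at -0.70, PDK1 at -1.03 and HIF1A at -0.15. The scanner's processed signals, read by those labels, gave the same rounded values.

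**Figure D3:**
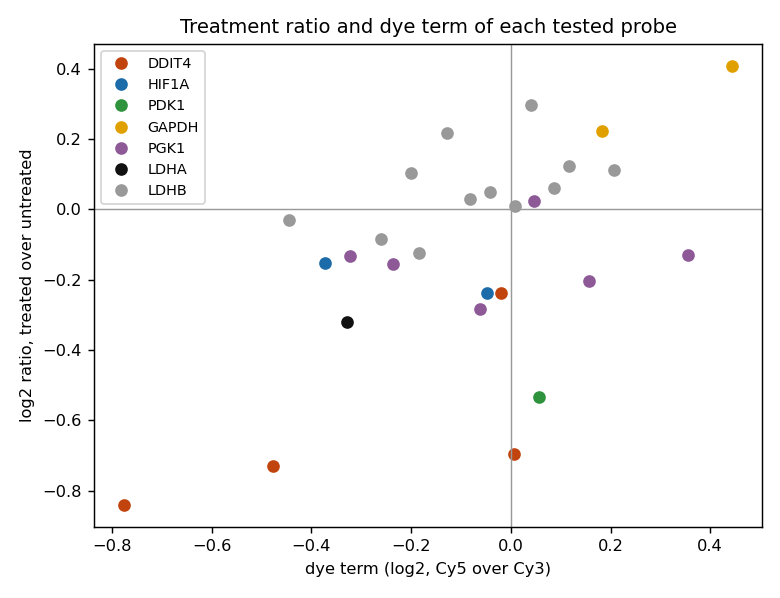
Treatment ratio (vertical axis, log2 of treated over untreated) against the dye term (horizontal axis, log2 of Cy5 over Cy3) of each tested probe, coloured by gene. Of the 4 DDIT4 points, 2 lie far left of 0 and 2 sit at a dye term near 0.

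HIF1A, the oxygen-regulated subunit of the hypoxia factor, varied in both directions. Its brightest probe, A_72_P213487, had treated levels of 11.62, 13.18, 13.06 and 12.06, against untreated levels of 12.85, 12.32, 12.89 and 12.49. The treated RNA was lower on arrays 1 and 4 and higher on arrays 2 and 3, with ratios of -1.23, 0.87, 0.17 and -0.43. The fitted ratio was -0.15 ± 0.30 (95% interval -0.87 to 0.56). The second probe, A_72_P585741, had the same sign on each array, with ratios of -0.59, 0.19, 0.02 and -0.57. Its untreated levels were nearly constant at 10.00, 10.22, 10.07 and 10.14, whereas its treated levels were 9.41, 10.41, 10.09 and 9.57. Most of the movement of both probes between arrays was therefore in the treated RNA, with SDs of 0.764 and 0.464 there, against 0.276 and 0.0938 in untreated RNA.

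PDK1, the kinase that inactivates pyruvate dehydrogenase, had treated levels of 9.47, 9.03, 10.46 and 7.74, against untreated levels of 10.22, 9.16, 10.67 and 8.78. The treated level was lower on 4 of 4 arrays, with overlapping groups, and was not well above background on array 4. The ratios were -0.74, -0.13, -0.21 and -1.04, and the fitted ratio was -0.53 ± 0.22 (limma adjusted p = 0.999; 95% interval -1.05 to -0.02). Without array 4 it was -0.31. With the scanner's processed signals, median centred, in place of the background correction and normalisation used here, it was -1.16. Its second probe, A_72_P471686, was above background only in Cy5 and was not tested. The ratios of that probe were -0.37, -0.32, -0.15 and -0.28.

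GAPDH, the glycolytic dehydrogenase often used as a reference gene for quantitative PCR, had the highest ratio of the 7 genes, and its 2 probes disagreed. The brighter one, A_72_P756170, had treated levels of 16.47, 16.61, 16.56 and 15.90, against untreated levels of 15.26, 16.19, 16.07 and 16.39. Treated RNA was the higher one on arrays 1 to 3 and the lower one on array 4, with ratios of 1.22, 0.42, 0.49 and -0.49 and a fitted ratio of 0.41 ± 0.23 (95% interval -0.13 to 0.95). The other, A_72_P321038, had ratios of 0.89, -0.35, -0.08 and 0.43, and a fitted ratio of 0.22 ± 0.24 (95% interval -0.33 to 0.78). The 2 probes had opposite signs on 3 of 4 arrays and shared one only on array 1.

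PGK1, which makes the first ATP of glycolysis, was read by 6 probes. Their fitted ratios ran from -0.28 to 0.02, with 5 below 0. The brightest, A_72_P746223, had treated levels of 14.05, 14.10, 14.23 and 13.82, against untreated levels of 14.41, 14.02, 14.78 and 13.52. Its ratios of -0.36, 0.08, -0.55 and 0.30 changed sign between arrays, and the fitted ratio was -0.13 ± 0.17 (95% interval -0.54 to 0.27). Of the 6 probes, 3 were below 0 on array 1, 5 on array 2, 5 on array 3 and 1 on array 4.

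LDHA, the muscle-type subunit of lactate dehydrogenase that HIF1 induces, and LDHB, the heart-type subunit, stood on either side of 0. The single LDHA probe had treated levels of 12.79, 12.07, 14.43 and 11.76, against untreated levels of 13.37, 12.28, 15.14 and 11.53. Treated RNA was lower on arrays 1 to 3 and higher on array 4, with ratios of -0.59, -0.22, -0.71 and 0.23 and a fitted ratio of -0.32 ± 0.18 (95% interval -0.74 to 0.10). The level on array 3 was far above the others in both RNAs.

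LDHB was read by 12 probes, the most of any of these genes. Their fitted ratios had a median of 0.05 and ran from -0.12 to 0.30, with 9 above 0 and none with an unadjusted p under 0.05. The brightest, A_72_P592974, had treated levels of 14.38, 14.57, 14.88 and 14.33, against untreated levels of 14.56, 14.42, 14.80 and 14.26. The groups overlapped almost fully, and the fitted ratio was 0.03 ± 0.17 (95% interval -0.38 to 0.44). The mean over the 12 probes was -0.18 on array 1, 0.00 on array 2, 0.16 on array 3 and 0.27 on array 4, where 12 of 12 were above 0. RefSeq lists 2 pig genes under this symbol. The probes carry the transcript of the copy with a gene model of 1280 bases, and the other, of 20287 bases, has no transcript of its own on the array, so which copy the signal comes from is uncertain.

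Setting DDIT4 against each of the other genes on the same array removes any shift common to the array. With the brightest probe of each gene, the difference was below 0 on 4 of 4 arrays for PGK1 (-0.78, -0.22, -0.72 and -0.67) and for LDHB (-0.95, -0.29, -1.36 and -0.44). It averaged -0.60 ± 0.26 and -0.76 ± 0.49 (SD, n = 4), each with an exact two-sided sign-flip permutation p of 0.13, the smallest that 4 arrays can give. Adjusted over the 6 pairs, both p-values were 0.375 in this exact permutation test, so no pair passed and none could have.

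With the same choice of probes the other pairs were less even. LDHA differed by -0.41 ± 0.32 and GAPDH by -1.14 ± 1.12, each below 0 on 3 of 4 arrays (exact permutation p = 0.25, adjusted p = 0.375). PDK1 differed by -0.20 ± 0.73, also on 3 of 4 arrays (exact permutation p = 0.625), and HIF1A by -0.58 ± 0.78 on 2 of 4 (exact permutation p = 0.5). PDK1 was the gene whose fitted ratio lay nearest to that of DDIT4, yet on array 4 its ratio was lower by 0.67. With all tested probes of a gene averaged, the evenness of the pairs changed. The PGK1 difference was then -0.48 ± 0.49 (exact permutation, adjusted p = 0.375). On array 2 DDIT4 averaged -0.25 and PGK1 -0.42, so PGK1 was the lower one there. LDHA, GAPDH and LDHB differed by -0.30 ± 0.25, -0.94 ± 0.83 and -0.69 ± 0.33 (exact permutation, adjusted p = 0.25 each).

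The levels of several of these genes differed more between arrays than between treated and untreated RNA, a pattern that was chosen after the values were seen. LDHA spanned 2.67 log2 units across the 4 arrays in treated RNA (6.35-fold) and 3.61 in untreated RNA (12.2-fold). PDK1 spanned 2.72 and 1.88, and the brightest DDIT4 probe 1.50 and 2.41. For comparison, the median range over all tested probes was 0.93 in treated and 0.89 in untreated RNA, and the LDHA ranges lay at the 98.2nd and 99.8th percentiles. Those of PDK1 lay at the 98.3rd and 93.5th, and those of the brightest DDIT4 probe at the 81.9th and 97.8th. The brightest HIF1A probe spanned 1.57 in treated RNA (84.0th percentile) and 0.57 in untreated RNA (22.6th).

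The high array was the same for these genes. The level was highest on array 3 in both RNAs for 4 of 4 DDIT4 probes, the PDK1 probe, the LDHA probe, 2 of 6 PGK1 probes and 1 of 12 LDHB probes, against 6.8% of the 13570 tested probes with a value in every channel. Neither HIF1A probe and neither GAPDH probe had its highest level there in both RNAs. Array 3 stood above the mean of the other arrays by 2.22 in treated and 2.74 in untreated RNA for LDHA, by 1.71 and 1.28 for PDK1, and by 1.20 and 1.93 for the brightest DDIT4 probe. The brightest LDHB probe stood above it by 0.46 and 0.39 and spanned only 0.56 and 0.54 across arrays.

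With each array centred on its median level in place of the quantile step, array 3 still stood above the others by 1.92 and 2.44 for LDHA, by 1.73 and 1.30 for PDK1 and by 0.78 and 1.51 for DDIT4. The brightest LDHB probe then stood above them by only 0.12 and 0.05, and the brightest PGK1 probe, 0.24 and 0.80 above with the quantile step, stood at -0.06 and 0.50. Array 1 was the second highest in both RNAs for the brightest DDIT4 probe, PDK1 and LDHA. Arrays 1 and 3 are also those with treated RNA in Cy5, and with a single pair of RNAs on each array, a difference of animal or culture cannot be told apart from one of array or dye orientation.

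**Figure D4:**
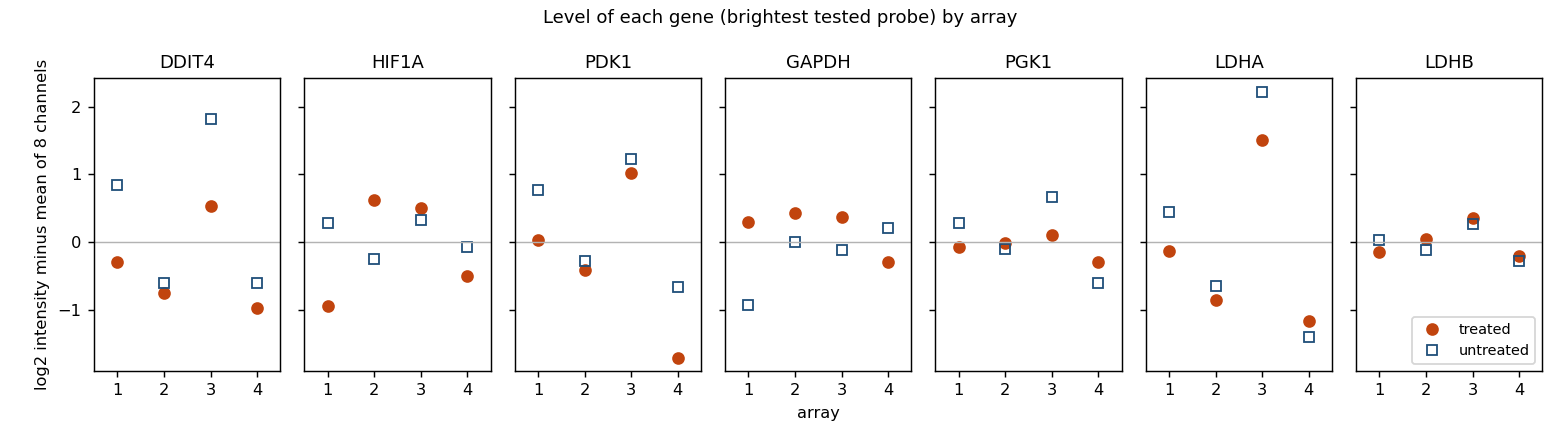
Level of each of the 7 genes by array (brightest tested probe, log2 intensity minus the mean of the gene's 8 channels), filled circles for treated and open squares for untreated RNA. DDIT4, PDK1 and LDHA have their highest treated and untreated values on array 3, while LDHB stays near 0 on all arrays.

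Among 13 tested hypoxia-induced genes other than glycolytic enzymes, 2 shared the high array. P4HA1, a collagen prolyl hydroxylase subunit, had treated levels of 10.37, 10.09, 11.83 and 10.34, against untreated levels of 11.43, 10.20, 11.96 and 10.22. HMOX1, the heme-degrading oxygenase, had treated levels of 13.61, 12.40, 13.73 and 12.04, against untreated levels of 12.84, 13.11, 13.44 and 12.75. Both were named after their values were seen. The pattern was not confined to that list. It also held for 1 of 4 other glycolytic enzymes (GPI), 1 of 8 genes of stress and glucocorticoid routes (MDM2) and 1 of 3 stromal markers (DCN). Array 3 stood above the other arrays by a median of 0.44 in treated and 0.84 in untreated RNA for the glycolytic enzymes. For the hypoxia-induced genes these medians were 0.34 and 0.39. Of 1604 named genes measured in every channel, 6.23% were highest on array 3 in both RNAs.

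The treatment ratios of the wider pathways were small, and no gene of any list passed the limma test at an adjusted p under 0.05. Over all 1637 tested genes the median was -0.02, with 56.1% of genes below 0 and 5.80% with an unadjusted p under 0.05. The other glycolytic enzymes had 4 tested genes of 26 listed and 11 on the array, with a median of -0.07 and 3 below 0. These were HK1 (hexokinase) at 0.07, GPI (glucose phosphate isomerase) at -0.06, ALDOC (an aldolase) at -0.13 and TPI1 (triose phosphate isomerase) at -0.08.

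Of 13 genes for the entry of pyruvate into the mitochondrion, 5 were tested, 1 below 0 and 4 above, with a median of 0.06. The one below 0 was PDK4, the kinase of the same family as PDK1 that fasting and glucocorticoids induce. It had treated levels of 11.69, 14.08, 13.44 and 13.99, against untreated levels of 14.33, 13.35, 13.88 and 14.01. The gap was on array 1, with a ratio of -2.64, against 0.73, -0.44 and -0.02 on the others, and the fitted ratio was -0.59 ± 0.35. Its 8 probes gave fitted ratios from -0.91 to -0.48. The subunits PDHB, DLAT and DLD and the carboxylase PC stood at 0.02, 0.06, 0.14 and 0.14.

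The HIF partners had 2 tested genes of 12, both below 0 at their brightest probe, with a median of -0.25. EPAS1, the HIF-2 alpha subunit, stood at -0.19, with its other probe at 0.03. HSP90AA1, a chaperone that stabilises HIF1A protein, stood at -0.32, the lowest of its 6 probes, which reached 0.07. With all probes of a gene averaged, the list's median was -0.08. Of 29 hypoxia-induced genes, 13 were tested, 11 below 0 and 2 above, with a median of -0.28. The lowest p there was that of CXCR4, a chemokine receptor, at -0.48 ± 0.18 (limma adjusted p = 0.999). VEGFA, the angiogenic growth factor, stood at -0.30 and TXNIP, a glucose-responsive brake on glucose uptake, at -0.36. LOX, which crosslinks collagen, stood at 0.26, SLC16A1, a lactate carrier, at 0.05, and PLIN2, a lipid droplet protein, at -0.06. The list's median did not keep its value: it was -0.09 without array 2, -0.04 when every array was read as treated in Cy5 and 0.09 with median centring of each array, which put all tested probes at 0.28.

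Of 32 genes of the mTOR pathway, 6 were tested, 4 below 0 and 2 above, with a median of -0.20. The subunits of AMPK, the energy sensor that restrains mTORC1, stood at -0.34 for PRKAG1, -0.24 for PRKAA2 and 0.02 for PRKAB1. AKT1, a kinase upstream of mTORC1, stood at -0.16, and TXNIP is on this list as well. Neither MTOR nor the TSC genes were matched to a probe here.

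Genes of the stress and glucocorticoid routes that induce DDIT4 had 8 tested members of 21, 7 below 0 and 1 above, with a median of -0.27. XBP1, a factor of the unfolded protein response, stood at -0.41, MDM2, a ubiquitin ligase, at -0.31, and NR3C1, the glucocorticoid receptor, at -0.30. DDIT3, another stress factor, stood at -0.20 and SGK1, a glucocorticoid-induced kinase, at 0.12. With median centring the median of this list was 0.10, that of the mTOR list 0.05, that of the HIF partners 0.18 and that of the glycolytic enzymes 0.36, so these directions turn with the scaling. Relative to all tested probes they stood at -0.18, -0.23, -0.10 and 0.08.

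**Figure D5:**
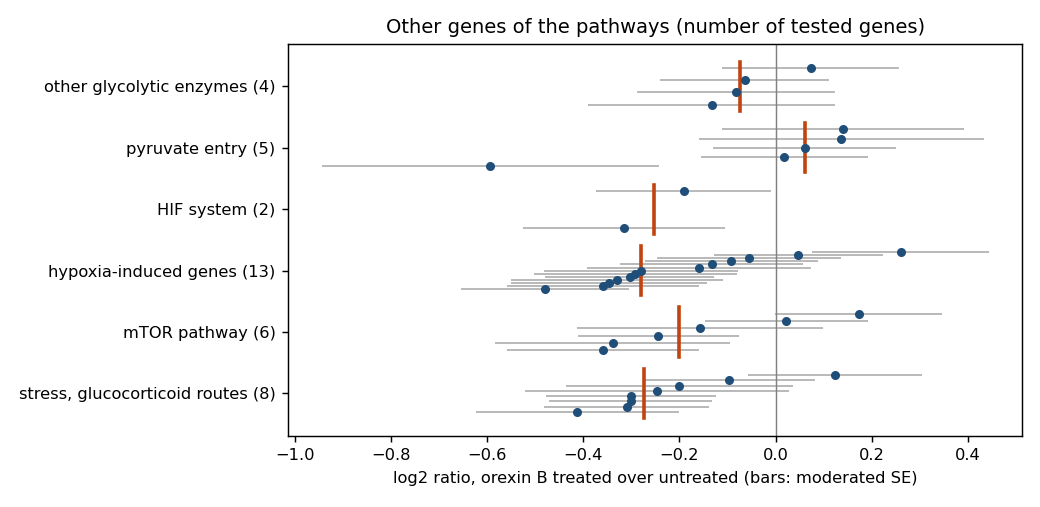
Fitted log2 ratio of treated over untreated RNA (horizontal axis, bars are moderated standard errors) of each tested gene in 6 pathway lists, with the list's median as a vertical mark. Single genes run from -0.59 (PDK4) to 0.26 (LOX), and list medians from -0.28 to 0.06.

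The genes whose 4 array ratios lay nearest to those of DDIT4 were found by the root mean square difference over arrays, among 1603 named genes with a value on every array. They were CXCL8 (a neutrophil chemokine, 0.242), SLA-DQA1 (a class II antigen-presenting chain, 0.248), ACBD3 (a Golgi protein, 0.271), SLA-DRA (another class II chain, 0.281), IFIT3 (an interferon-induced gene, 0.285) and ICAM1 (an adhesion molecule, 0.290), against a median of 0.949 over all genes. CXCL8, for one, had ratios of -1.16, -0.22, -1.02 and 0.04. Within the 7 genes LDHA came first, at place 66 with 0.496, followed by PGK1 at 195 and PDK1 at 221. LDHB and HIF1A stood at 601 and 631, and GAPDH at 1528, near the far end. Each such likeness spans only 4 arrays and includes the dye pattern of the brightest DDIT4 probe.

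Most tested markers of leukocytes, epithelium, endothelium and smooth muscle had ratios below 0, beside 56.1% of all tested genes. Of 5 tested macrophage and myeloid markers of 9, 4 were below 0 and CD163 stood at 0.18, with a list median of -0.42. Their summed level ran from 12.57 to 13.26 in treated and from 12.71 to 14.07 in untreated RNA. All 9 T and NK cell markers were on the array, but only 4 were tested. Of these, 4 were below 0, with a median of -0.26. Their summed level ran from 11.12 to 12.75 in treated and from 11.10 to 13.31 in untreated RNA. Epithelial markers had a median of -0.26 (4 of 5 below 0), endothelial markers -0.21 (3 of 4), smooth muscle markers -0.21 (3 of 3) and stromal markers 0.20 (3 of 3 above 0). Of 7 trophoblast and conceptus markers 2 were tested. TFAP2C, a trophoblast transcription factor that epithelia can also express, had ratios of 2.14, 0.41, 1.43 and 0.60 and a fitted ratio of 1.14 ± 0.19 (limma adjusted p = 0.999), with its other probe at 0.55. IL1B2, the interleukin of the elongating pig conceptus, stood at -0.42 ± 0.18. The summed level of these 2 ran from 11.29 to 11.75 in treated and from 10.41 to 11.24 in untreated RNA. That gap came from TFAP2C, at 10.83 to 11.45 in treated and 8.78 to 10.58 in untreated RNA, whereas IL1B2 went the other way. The share of all genes that separate in this way was not counted, so the gap describes TFAP2C only. The part of the marked cell types in the ratios of DDIT4 and PDK1 was not tested, and in whole explants fewer cells of a type and less RNA per cell cannot be told apart.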

How the data were processed

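Spot intensities came from Agilent Feature Extraction 10.7.3.1 (array design 026440), as deposited by the authors and per the file headers. The authors' deposited value table gives treated over untreated as log2 ratios, made from the scanner's processed signals and not centred, and served as an alternative. Median spot and background intensities were corrected by normexp (offset 50) and normalised by loess within arrays in limma 3.58.1 (R 4.3.3), with control and outlier spots at weight 0. Spots of a probe were averaged, giving 43603 probes. For a probe to be tested, 1 group, treated or untreated, had to be well above background on every one of the 4 arrays (13781 probes, 211 without a value on at least 1 array). The lmFit and eBayes fit had a treatment and a dye term, 2 residual and 5.09 prior degrees of freedom, and p-values were two-sided. Levels were log2 intensities after an added Aquantile step, and a marker list's summed level is the log2 of the summed intensities. No tested spot was saturated.

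Probes were named by unversioned RefSeq accession (Sscrofa11.1 gene table): 6700 probes, of which 3635 were tested. No coordinates or sequences are given. A gene is represented by its brightest tested probe. Between arrays, the Cy5 over Cy3 ratios of the 10 spike-ins had correlations of at least 0.996. The members and lists were chosen with earlier results of these data known. Named are all 7 genes with their probes, in each list the 3 highest and 3 lowest moderated t, and the 6 genes nearest to DDIT4, except that some list genes are not reported here. The fit was tested on simulated data. Alternatives left out each array and changed the normalisation, background, filter, dye term, dye orientation and choice of probe.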

Additional observations from a re-analysis of the deposited data

Results flagged for a closer look

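Of 84 sets of 4 array values examined for the 7 genes (levels in treated RNA, levels in untreated RNA and ratios of each tested probe), 2 had a single array far from the others, both in LDHB on array 3. Chance marks about 1 in 20 such sets. The untreated level of probe A_72_P007566 was 13.85 on array 3, against 14.22, 14.19 and 14.19 on arrays 1, 2 and 4. The ratio of probe A_72_P522171 was 0.45 on array 3, against 0.03, 0.01 and 0.00 on the same others.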

How the results depend on the processing

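Of 13 alternatives, 3 (no dye term and the 2 other filters) cannot move the ratio of a probe. In the other 10 the DDIT4 ratio lay below 0, from -0.83 to -0.20, and over all 13 its limma adjusted p-values lay between 0.288 and 1.00. The value nearest 0 came from median centring in place of loess, which put the median of all tested probes at 0.28. Relative to that median DDIT4 stood at -0.48. The same centring gave 0.20 for HIF1A, 0.31 for PGK1 and 0.21 for LDHA, which had been below 0, but relative to that median they stood at -0.08, 0.03 and -0.07. LDHB was -0.10 with the scanner's processed signals, where all tested probes had a median of -0.13, and -0.082 when every array was read as treated in Cy5. PDK1 was 0.056 under that reading, -1.16 with the processed signals and -1.03 in the authors' table, and had no value when both channels had to be above background. Counted among the 10, the reading as treated in Cy5 gave DDIT4 the dye term of its brightest probe, -0.48. The 2 even DDIT4 probes stood at 0.01 and -0.02 under it. Beyond these shifts of all probes, the cause of the moves was not tested. Leaving out 1 array gave DDIT4 -0.79 to -0.67, HIF1A -0.50 to 0.20, PDK1 -0.76 to -0.31, GAPDH 0.18 to 0.63, PGK1 -0.19 to -0.08, LDHA -0.43 to -0.21 and LDHB -0.037 to 0.098. The number of probes called was 0 to 17 when an array was left out. The 17 arose without array 2, among 13618 probes, and none was a probe of the 7 genes. Averaging the probes of each gene gave 2 called genes, neither among the 7, with DDIT4 at -0.63 and an adjusted p of 0.340. The means of the 6 differences between DDIT4 and another gene kept their sign under both of their alternatives, though single arrays did not always. The median of the hypoxia-induced genes moved under 7 alternatives, that is by at least the SD of its own 4 array medians. Those medians lay close together, at -0.09, -0.23, -0.18 and -0.01. Some moves include a shift of all probes: with the processed signals the list's median was -0.40, but -0.27 relative to all tested probes. The processing used here put it at -0.30 relative to them. The ratio of each array is itself a treated and untreated pair, so every fit here is paired and has no further replicate block. Signal over background limits PDK1 and DDIT4 probe A_72_P538933 most.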
